A study of Mus musculus with 12 samples.

Results

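Tumors that grew in arsenic-exposed mice from prostate cancer cells implanted together with adipose stromal cells (ASC) were compared with tumors that grew in equally exposed mice from the prostate cancer cells alone. The comparison used 6 of the 12 tumors sequenced, 3 of group ASC300 and 3 of group A300, chosen by their labels, and it covered the 19280 of 55401 genes in the table that passed a filter on low counts. Every tumor in both groups grew from 125000 TC2Ras cells, a Ras-driven mouse prostate cancer line made by the authors, injected under the skin of both flanks of mice kept beforehand on low-arsenic chow and purified water. Mice of both groups then drank water with 300 ppb inorganic arsenic (iAs) until the tumors were removed at 21 days, and the flank tumors of each mouse were combined. In ASC300 1% ASC-GFP cells had been added to the implant. These are primary stromal cells from the fat of male mice that carry GFP under the ubiquitin C promoter in all cells, whereas A300 received none. The strain, sex and age of the host mice are not given in the sources used here. The labels name stromal cells as the material, while the study's description is of tumor tissue, and the libraries were treated as tumors. The remaining 6 tumors, ASC (with 1% ASC) and Control1 (without), came from mice given 0 ppb iAs and enter only the last comparison.

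Interferon gamma, a cytokine released by activated T cells and natural killer (NK) cells, signals through its receptor and the JAK kinases to transcription factors that bind gamma-activated sites (GAS) in target genes. One target is IRF1, itself a transcription factor, which binds interferon-stimulated response elements (ISRE). Targets include 2 families of GTPases that act against intracellular pathogens, the genes for antigen processing and presentation by MHC molecules, chemokines that attract T cells, and the checkpoint ligand PD-L1. In tumors this program is known both as a sign of T cell activity and as a route by which that activity is restrained.

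The stretches of 250 bases before the transcription start are shown for the 4 genes with the smallest unadjusted p-values in the comparison, all higher in ASC300. Irf1 and Gm12250 share their adjusted p with the next 3 genes, Serpina3f, Gbp3 and Mpeg1, and the window of Mpeg1 held no match to the motifs searched. They come from RefSeq promoter windows of build GRCm38.p6 and read 5′ to 3′ on the gene's strand, with matches to GAS (TTCNNNGAA) or ISRE (GAAA, any 2 bases and GAAA, or its reverse complement) in capitals. Positions count from the start, with -1 for the base before it. Igtp lies on the plus strand at chr11:58199306-58199555, with GAS at -45 to -37 and ISRE at -34 to -25. Gbp2 lies on the plus strand at chr3:142620413-142620662, with ISRE at -59 to -50. Irf1 lies on the plus strand at chr11:53769764-53770013, with GAS at -90 to -82, and the table holds another window for Irf1, at chr11:53770223-53770472, with no match. Gm12250 lies on the plus strand at chr11:58183593-58183842, with GAS at -61 to -53 between ISRE matches.
Igtp: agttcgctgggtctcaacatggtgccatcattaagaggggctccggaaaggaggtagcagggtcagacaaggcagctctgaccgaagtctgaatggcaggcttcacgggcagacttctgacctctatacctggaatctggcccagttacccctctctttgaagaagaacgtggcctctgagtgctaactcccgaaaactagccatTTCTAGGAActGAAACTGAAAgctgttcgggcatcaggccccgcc
Gbp2: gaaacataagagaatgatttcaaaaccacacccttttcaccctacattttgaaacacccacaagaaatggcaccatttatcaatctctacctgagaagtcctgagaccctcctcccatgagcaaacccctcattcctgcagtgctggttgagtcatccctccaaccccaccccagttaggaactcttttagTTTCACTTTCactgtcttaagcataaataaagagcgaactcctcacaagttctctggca
Irf1: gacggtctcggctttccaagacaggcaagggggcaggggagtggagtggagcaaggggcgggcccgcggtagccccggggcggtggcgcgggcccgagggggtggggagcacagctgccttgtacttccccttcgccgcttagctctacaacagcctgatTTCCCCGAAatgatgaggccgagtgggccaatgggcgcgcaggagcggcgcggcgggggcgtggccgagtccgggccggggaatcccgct
Gm12250: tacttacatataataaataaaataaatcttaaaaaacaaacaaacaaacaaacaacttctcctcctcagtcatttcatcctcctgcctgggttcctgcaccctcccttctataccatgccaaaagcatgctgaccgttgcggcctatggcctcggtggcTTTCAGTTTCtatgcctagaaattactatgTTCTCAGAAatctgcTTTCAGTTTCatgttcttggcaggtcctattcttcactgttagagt

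The promoter table held windows of 300 bases, which run to 50 bases after the start, for 163 of the 223 genes called up and for 22 of the 42 called down. Both strands were searched, and matches to the motifs may overlap. GAS or ISRE was found in 35.0% of the 203 windows of genes called up and in 8.57% of the 35 windows of genes called down. Either motif was found in 9.78% of the 15740 windows of genes tested and in 11.3% of all 32851 windows in the table. The share was 83.3% of the 6 windows of guanylate-binding protein genes, 87.5% of the 8 windows of immunity-related GTPase genes, 36.8% of the 19 windows of MHC class I genes and 20.0% of the 10 windows of MHC class II genes. A match describes the letters in the window and was not tested as a binding site.

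Genes of the interferon response, of antigen presentation and of T cells rose in ASC300 relative to A300. The genes that fell included the epithelial keratin gene Krt8 and several genes known from neurons and myelin. Calls needed a p under 0.05 in edgeR's quasi-likelihood test, adjusted over all genes by the Benjamini-Hochberg method, together with a minimum change of 1.5-fold. On this rule 265 genes changed (1.37% of those tested), of which 223 rose (1.16%) and 42 fell (0.218%). The median fold of the calls was 2.67 upward and 2.68 downward, and 66 genes rose and 7 fell at least 4-fold. Over all tested genes the median log2 fold change was -0.01, and 47.9% of the genes were above 0. The number of genes that fell depended on the fit, with 207 by DESeq2 and 13 in a fit to all 12 tumors, against 436 and 165 genes that rose. The fit to all 12 tumors was filtered, normalized and adjusted anew, over 20818 genes, besides taking the spread from all 12. Leaving out ASC300 replicate 2 or 3 left 126 and 108 genes that rose. The genes that fell numbered 25 and 18 without A300 replicates 1 and 2, and 9, 15 and 18 without ASC300 replicates 1, 2 and 3.

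Total counts lay between 41670675 and 55168642 per tumor. The first principal component of log2 CPM (counts scaled to a common library size) held 31.81% of the variance, with the A300 tumors between -71.36 and -2.8 and the ASC300 tumors between 21.18 and 50.96. A300 replicate 1, which lay farthest out, carried skeletal muscle transcripts, described below. Prostate epithelial identity was weak in both groups. The secretory prostate gene Pbsn had no count in any of the 6 tumors, the prostate genes Hoxb13 and Tmprss2 were below the filter, and the adhesion gene Epcam lay between 0.137 and 0.589 CPM. In whole tumors, fewer cells of a type and less RNA per cell cannot be told apart.

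**Figure D1:**
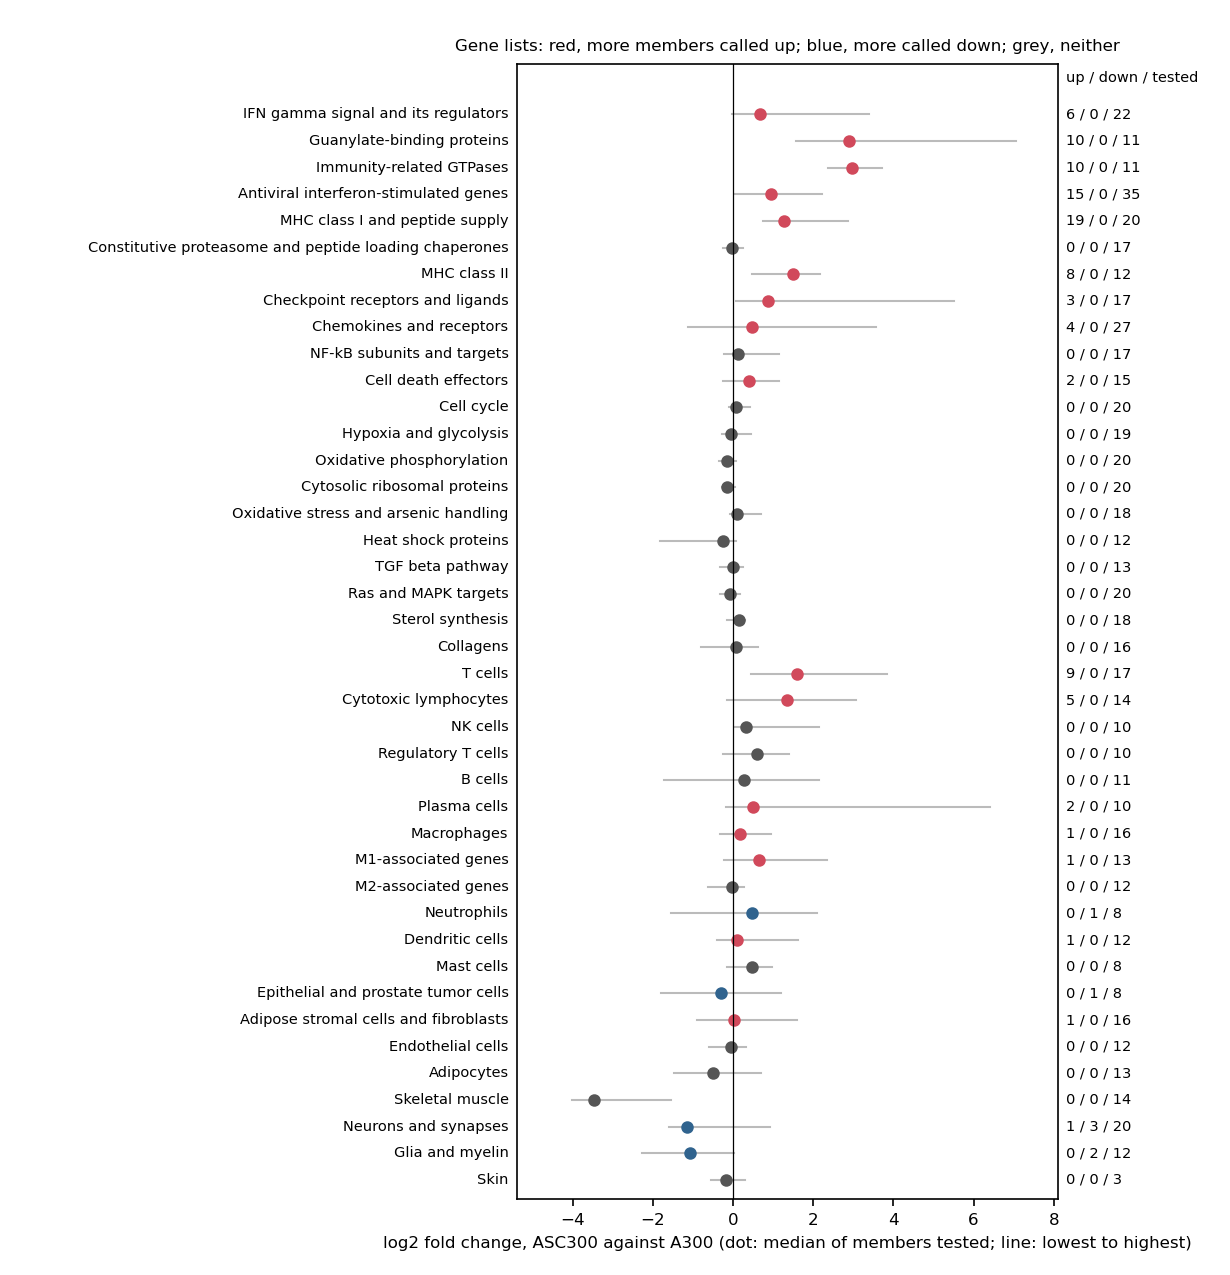
Log2 fold change between ASC300 and A300 for each gene list, with a dot at the median of the members tested and a line from the lowest to the highest member, and the members called up, called down and tested at the right. The GTPase, MHC and T cell lists lie to the right of 0 with most or many members called, and the skeletal muscle, neuron and glia lists lie to the left.

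The ligand of the pathway was scarce. Ifng itself had 0.304, 0 and 0.404 CPM in A300 and 1.84, 2.20 and 3.48 CPM in ASC300. The groups did not overlap, but the log2 fold change of 3.39 ± 0.84 (SE) had an adjusted p of 0.105 (edgeR), which missed the threshold. Genes for the receptor chains differed little, with log2 fold changes of 0.06 for Ifngr1 and -0.02 for Ifngr2.

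Of 22 tested genes of interferon gamma signalling, 6 rose and none fell, with a median log2 fold change of 0.67. Irf1 had 53.8, 51.3 and 59.3 CPM in A300 against 153, 187 and 171 CPM in ASC300, a 3.11-fold rise (log2 1.64 ± 0.09 SE, adjusted p = 0.000207, edgeR), and every ASC300 tumor stood above every A300 tumor. Stat2, a transcription factor of the type I interferon response, rose 2.28-fold (adjusted p = 0.00484), Il18bp, a secreted inhibitor of the interferon-inducing cytokine IL-18, rose 2.85-fold (adjusted p = 0.00152), and Irf8, which directs myeloid cells, rose 1.72-fold (adjusted p = 0.0415). The call for Irf8 was lost in 7 of 14 alternatives, among them those without A300 replicate 1, 2 or 3 or ASC300 replicate 2 or 3 (adjusted p 0.0586 to 0.141), and that for Stat2 in none. Stat3, which serves mainly IL-6-type cytokines, had a log2 fold change of 0.24 and was not called (adjusted p = 0.162).

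The 2 families of GTPases had the highest median log2 fold changes of all lists. Guanylate-binding proteins attack the membranes around intracellular pathogens and assist inflammasome activation. Of 11 tested genes 10 rose, with a median log2 fold change of 2.90, and in all 11 the groups did not overlap, as was the case for 10.6% of all genes tested in this direction. Gbp2 had 28.1, 17.8 and 26.1 CPM in A300 and 304, 392 and 356 CPM in ASC300, a 14.6-fold rise (log2 3.87 ± 0.18 SE, adjusted p = 6.97e-05, edgeR). Gbp3 rose 8.61-fold, from 13.7, 8.99 and 15.2 CPM to 98.7, 106 and 122 CPM (adjusted p = 0.000207). Gbp4 and Gbp5 rose 8.11-fold and 6.81-fold (both adjusted p = 0.000373), and reads of Gbp4 may be shared with Gbp8 and Gbp9, which overlap it. Gbp2b was at or under the floor of 12 counts per tumor in all A300 tumors, at 0, 0.163 and 0.193 CPM, and had 18.4, 11.3 and 21.7 CPM in ASC300. It was at least 67.7-fold higher, comparing the mean of ASC300 with the mean floor of the A300 tumors.

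Immunity-related GTPases mark pathogen vacuoles and regulate autophagy in mouse cells. Of 11 tested genes 10 rose, with a median log2 fold change of 2.98, and again no gene overlapped between the groups. Igtp, which had the smallest adjusted p of all genes tested, had 13.0, 11.6 and 14.7 CPM in A300 and 116, 148 and 154 CPM in ASC300. It rose 10.6-fold (log2 3.41 ± 0.14 SE, adjusted p = 3.98e-05), though it overlaps Irgm2 on the same strand and the counting could share reads between them. Tgtp1 rose 11.8-fold, from 7.27, 3.32 and 6.64 CPM to 57.8, 70.9 and 74.3 CPM (adjusted p = 0.000373), but its near-identical copy Tgtp2 and the overlapping Gm12185 leave the split of reads uncertain. Ifi47 rose 5.70-fold (adjusted p = 0.000353) and Gm12250 7.13-fold, from 1.87, 2.34 and 2.11 CPM to 14.0, 15.5 and 15.7 CPM (adjusted p = 0.000207). Over both families, A300 replicate 2 was the lowest A300 tumor in 19 of 22 genes and ASC300 replicate 1 the lowest ASC300 tumor in 15. The same tumors were lowest in 154 and 164 of the 223 genes that rose.

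**Figure D2:**
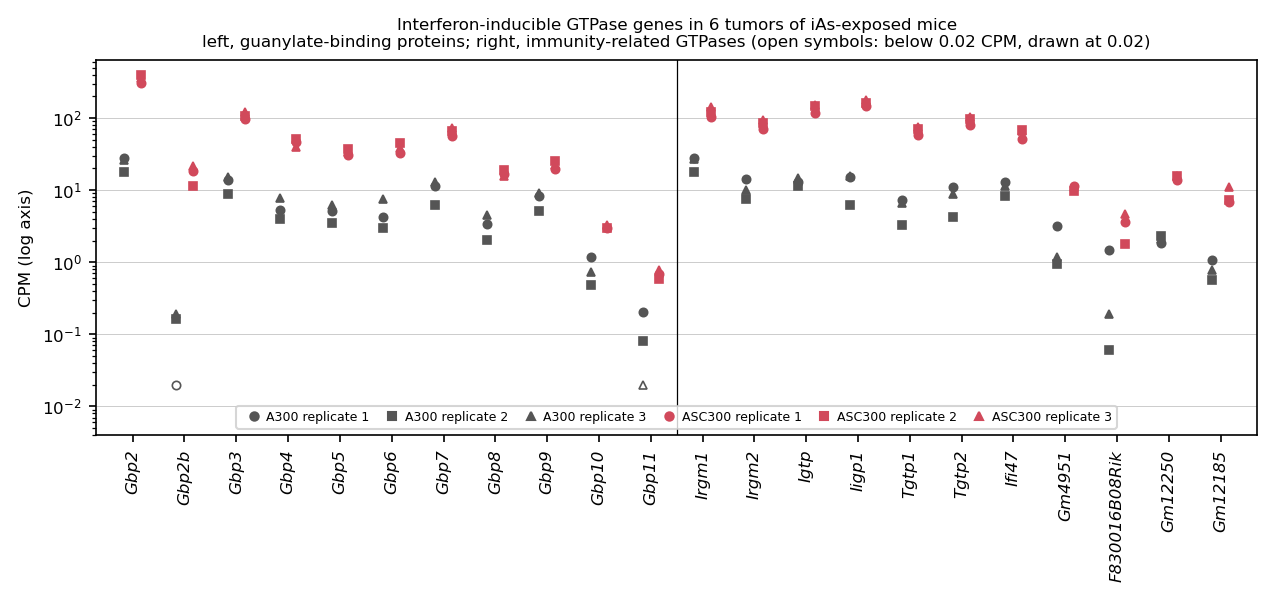
CPM on a log axis for 22 interferon-inducible GTPase genes, with 1 symbol for each of the 3 A300 tumors (grey) and the 3 ASC300 tumors (red), and open symbols drawn at the lower limit. The red symbols lie above the grey ones in all 22 genes, and A300 replicate 2 is the lowest grey symbol in 19 of them.

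Antiviral genes induced mainly by type I interferon changed less. Of 35 tested genes 15 rose and all 35 had a log2 fold change above 0, with a median of 0.95. Zbp1, a sensor of Z-form nucleic acids that can start necroptosis, rose 4.64-fold, from 12.9, 12.2 and 13.9 CPM to 44.4, 64.3 and 72.1 CPM (adjusted p = 0.000422). The ADP-ribosyltransferase genes Parp9 and Parp14 rose 2.67-fold (adjusted p = 0.000293) and 2.90-fold (adjusted p = 0.00126). Dtx3l, which encodes the ubiquitin ligase partner of PARP9 and overlaps its gene on the opposite strand, rose 2.77-fold (adjusted p = 0.00141). The remaining 11 genes that rose did so between 1.71-fold and 3.0-fold. By DESeq2, 28 of the 35 were called, and by edgeR 7 without either ASC300 replicate 2 or 3.

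Presentation of peptides to CD8 T cells by MHC class I needs the heavy chains, beta-2 microglobulin, the immunoproteasome that cuts peptides, and the transporter that carries them. Of 20 tested genes of this machinery 19 rose, with a median log2 fold change of 1.26, and the other gene, Psme2, had a log2 fold change of 1.12. Nlrc5, the transactivator of MHC class I genes, had 8.18, 5.10 and 7.88 CPM in A300 and 45.7, 51.6 and 55.8 CPM in ASC300, a 7.24-fold rise (log2 2.86 ± 0.18 SE, adjusted p = 0.000248). Tap1, a subunit of the peptide transporter, rose 4.94-fold, from 28.1, 19.1 and 28.6 CPM to 102, 133 and 139 CPM (adjusted p = 0.000373). Psmb9, an immunoproteasome subunit, rose 4.02-fold (adjusted p = 0.000506) and lies opposite Tap1, so that without stranded counting their reads could mix. Erap1, which trims peptides to length, rose 2.41-fold (adjusted p = 0.00076). The heavy chain gene H2-K1 rose 2.48-fold, from 319, 214 and 279 CPM to 611, 684 and 718 CPM (adjusted p = 0.00246), and B2m rose 1.95-fold, from 650, 513 and 603 CPM to 1060, 1100 and 1280 CPM (adjusted p = 0.00329). ASC300 replicate 1 was the lowest ASC300 tumor in 19 of the 20 genes.

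The constitutive proteasome and the general chaperones of peptide loading served as a contrast. None of 17 tested genes was called by edgeR or by DESeq2, where edgeR called 1.37% of all genes. At an unadjusted p under 0.05, 3 were higher (7.04% of all genes were) and 1 lower (6.21% were). The median log2 fold change was -0.03. Psmb5, the constitutive counterpart of an immunoproteasome subunit, had 140, 172 and 144 CPM in A300 and 118, 132 and 135 CPM in ASC300 (log2 -0.24 ± 0.10 SE, adjusted p = 0.323). The chaperone genes Calr and Pdia3 had log2 fold changes of 0.26 and 0.24, and Psma4 0.23.

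MHC class II, through which antigen-presenting cells show peptides to CD4 T cells, rose as well. Of 12 tested genes 8 rose, with a median log2 fold change of 1.49. H2-Eb1 had 93.5, 72.3 and 94.2 CPM in A300 and 344, 315 and 424 CPM in ASC300, a 4.17-fold rise (log2 2.06 ± 0.14 SE, adjusted p = 0.000284). H2-Aa rose 3.85-fold, from 124, 90.0 and 107 CPM to 409, 363 and 463 CPM, and H2-Ab1 rose 4.00-fold, both with the same adjusted p. Cd74, the invariant chain that guides class II molecules to endosomes, rose 3.70-fold, from 308, 233 and 275 CPM to 1000, 870 and 1150 CPM (adjusted p = 0.000284). Ciita, the transactivator of class II genes, rose 4.51-fold but unevenly, with 7.73 CPM in ASC300 replicate 1 against 21.4 and 19.2 CPM in the other ASC300 tumors and 4.53, 3.65 and 2.55 CPM in A300 (adjusted p = 0.0296).

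**Figure D3:**
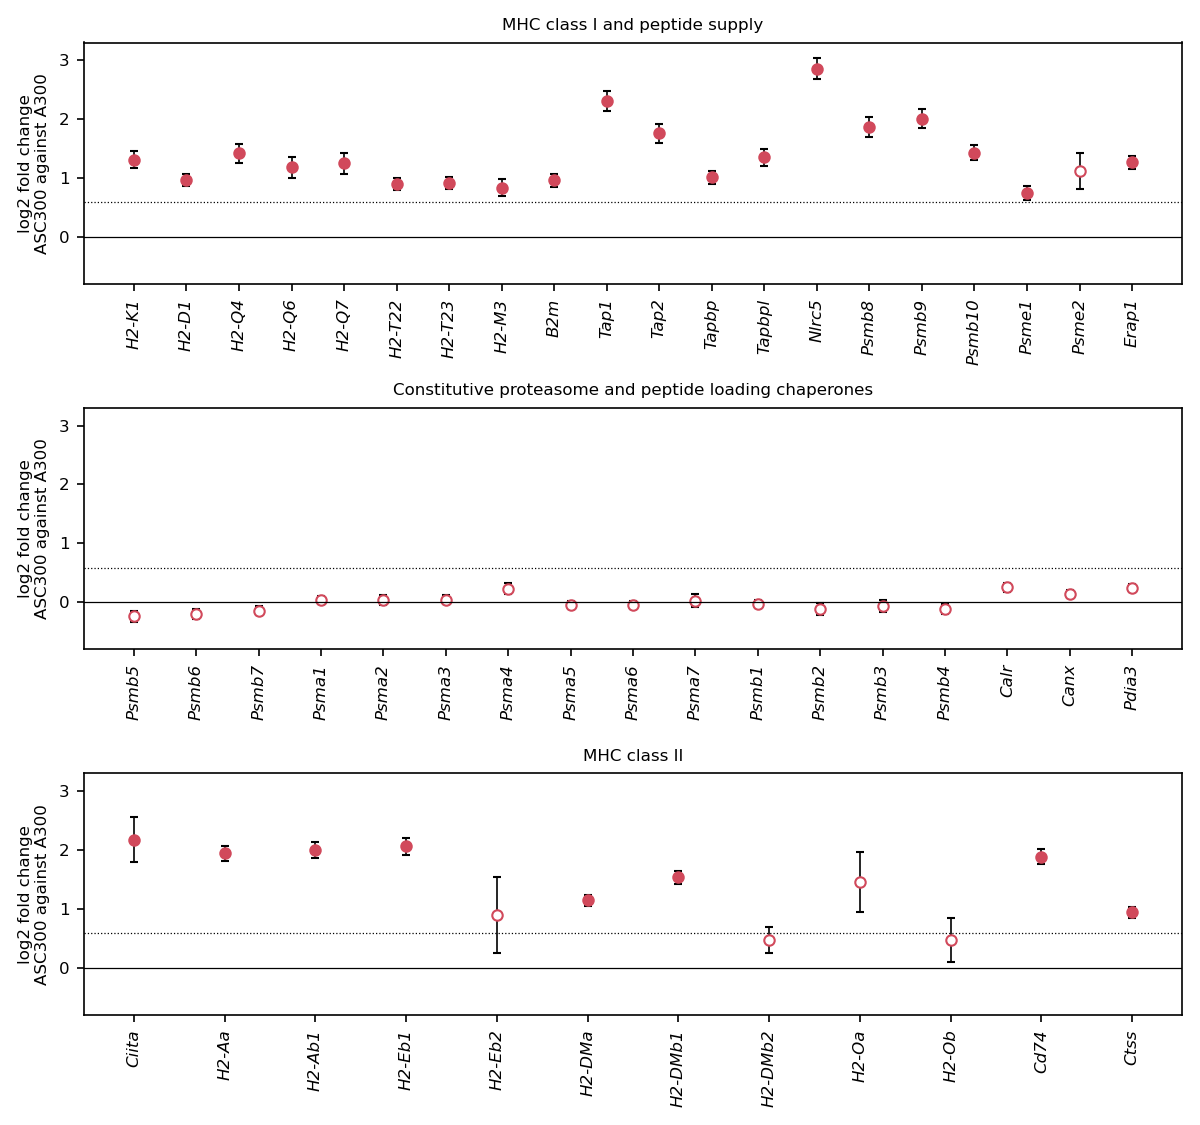
Log2 fold change between ASC300 and A300 with its SE for genes of MHC class I presentation, the constitutive proteasome and chaperones, and MHC class II, filled where called, with a dotted line at the 1.5-fold minimum. In the top panel 19 of 20 genes are filled, in the middle panel 0 of 17 and in the bottom panel 8 of 12.

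Checkpoint molecules that limit T cells were examined as 17 genes, of which 3 rose, 13 were higher at an unadjusted p under 0.05 (7.04% of all genes were), and 7 were called by DESeq2. Cd274, which encodes PD-L1, had 9.65, 5.71 and 9.69 CPM in A300 and 34.6, 34.8 and 32.7 CPM in ASC300, a 4.08-fold rise (log2 2.03 ± 0.20 SE, adjusted p = 0.00152). Pdcd1, the receptor PD-1, had 1.06, 0.326 and 1.63 CPM against 5.49, 6.26 and 8.91 CPM, a 6.79-fold rise (log2 2.76 ± 0.50 SE, adjusted p = 0.0345) whose call was lost without A300 replicate 1 or any of the ASC300 tumors (adjusted p 0.0752 to 0.146). Ido1, an enzyme that depletes tryptophan, was at or under the floor in A300, at 0, 0.184 and 0.105 CPM, and had 5.01, 3.65 and 5.35 CPM in ASC300. It was at least 18.5-fold higher (adjusted p = 0.00393). Lag3 and Havcr2 (TIM-3) did not overlap between the groups but were not called, with log2 fold changes of 1.68 (adjusted p = 0.0711) and 0.86 (adjusted p = 0.0623).

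Of 27 tested chemokines and receptors 4 rose. Cxcl9, a ligand of the T cell receptor CXCR3 and a typical target of interferon gamma, had 20.4, 5.10 and 18.2 CPM in A300 and 152, 185 and 176 CPM in ASC300, an 11.8-fold rise (log2 3.56 ± 0.42 SE, adjusted p = 0.00419). Cxcl10, another ligand of CXCR3, rose 3.46-fold, from 21.6, 19.8 and 37.2 CPM to 74.4, 108 and 89.4 CPM (adjusted p = 0.00821). Cxcr6, a receptor of resident T cells, rose 4.67-fold, from 1.06, 1.02 and 1.44 CPM to 6.47, 3.06 and 6.98 CPM (adjusted p = 0.0185). Ccl3, a chemokine of activated myeloid and T cells, had 3.55, 1.16 and 1.56 CPM against 6.23, 6.44 and 11.7 CPM and was not called (log2 1.97 ± 0.44 SE, adjusted p = 0.0739). The call for Cxcr6 was lost without A300 replicate 1 or 2 or ASC300 replicate 1 or 3 (adjusted p 0.0511 to 0.0936). The list median was 0.46.

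T cell transcripts were low but higher in ASC300. All 17 T cell genes tested had a log2 fold change above 0 and 9 of them rose, with a median of 1.60, and their summed level was 21.4 to 30.5 CPM in A300 and 73.6 to 103 CPM in ASC300. Cd8a, which marks cytotoxic T cells, had 1.47, 0.938 and 2.12 CPM against 14.8, 8.61 and 20.6 CPM, a 9.65-fold rise (log2 3.27 ± 0.39 SE, adjusted p = 0.0042). In the fit to all 12 tumors 1 of the 17 genes was called, and the adjusted p was 0.306 for Cd3e, 0.249 for Cd3d and 0.0624 for Cd8a. For Cd8a the range over the alternatives began at 8.68e-23. Those 12 include Control1 replicate 1, which stood far above the other Control1 tumors in T cell genes (values below). Its part in these adjusted p-values was not tested. Cd3e and Cd3d, parts of the T cell receptor complex, rose 5.26-fold and 3.39-fold (adjusted p = 0.011 and 0.0149). Cd4, which macrophages can also express, had a log2 fold change of 0.43. The number of T cell genes that rose was 3, 5, 5, 3 and 2 without A300 replicates 2 and 3 and ASC300 replicates 1, 2 and 3, and Cd3e was then lost without A300 replicate 2 or ASC300 replicate 3, and Cd3d without A300 replicate 3 or any ASC300 tumor (adjusted p 0.0513 to 0.0796).

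Of 14 tested genes of cytotoxic lymphocytes 5 rose, with a median log2 fold change of 1.35. Klrk1, the activating receptor NKG2D, rose 4.80-fold, from 1.47, 1.71 and 3.20 CPM to 9.52, 10.8 and 10.5 CPM (adjusted p = 0.00697). Klrc1, the inhibitory receptor NKG2A, rose 8.38-fold, from 1.16, 0.408 and 0.439 CPM to 5.38, 4.57 and 6.70 CPM (adjusted p = 0.01). The granule protein genes Nkg7 and Gzmb rose 4.26-fold (adjusted p = 0.0171) and 2.74-fold (adjusted p = 0.0291). The count of 5 became 3, 2, 3 and 2 without A300 replicates 1, 2 and 3 and ASC300 replicate 3, with the calls lost for Gzmb in these fits (adjusted p 0.0593 to 0.125), for Nkg7 without A300 replicate 2 (0.0884) and for Klrc1 without ASC300 replicate 3 (0.0592). In the fit to all 12 tumors 3 were called, and Nkg7 was not (adjusted p = 0.0795). Of 10 NK cell genes none was called by edgeR, 3 were higher at an unadjusted p under 0.05 and 2 were called by DESeq2. Klri2, an NK receptor gene, came nearest with a log2 fold change of 2.14 ± 0.44 (SE, adjusted p = 0.0578), and Ncr1, specific to NK cells, had 0.253, 1.22 and 0.843 CPM against 1.45, 2.37 and 1.47 CPM (adjusted p = 0.386).

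Other lymphocytes gave fewer calls. Of 10 genes of regulatory T cells none was called by edgeR, 2 were higher at an unadjusted p under 0.05 and 1 was called by DESeq2. In this list 8 genes had a log2 fold change above 0 and 2 below, with a median of 0.59. The defining factor Foxp3 had a log2 fold change of -0.03. Among 11 tested B cell genes edgeR also called none, with 2 higher at an unadjusted p under 0.05 and 1 DESeq2 call. Of 10 tested plasma cell genes 2 rose, both immunoglobulin genes. Ighm rose 2.18-fold, from 13.3, 10.9 and 8.60 CPM to 20.7, 28.3 and 22.4 CPM (adjusted p = 0.0244), and Ighg2c, with 0, 0.285 and 0.105 CPM against 8.85, 2.39 and 24.1 CPM, varied widely within ASC300 (log2 6.42 ± 1.04 SE, adjusted p = 0.0204). The call for Ighg2c was lost in 6 of the 13 alternatives that gave it a value, and that for Ighm in 6 of 14. Neither was called without A300 replicate 2 or 3 or ASC300 replicate 1 or 3 (adjusted p 0.0542 to 0.0966), nor in the fit to all 12 tumors (0.227 for Ighg2c and 0.698 for Ighm).

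**Figure D4:**
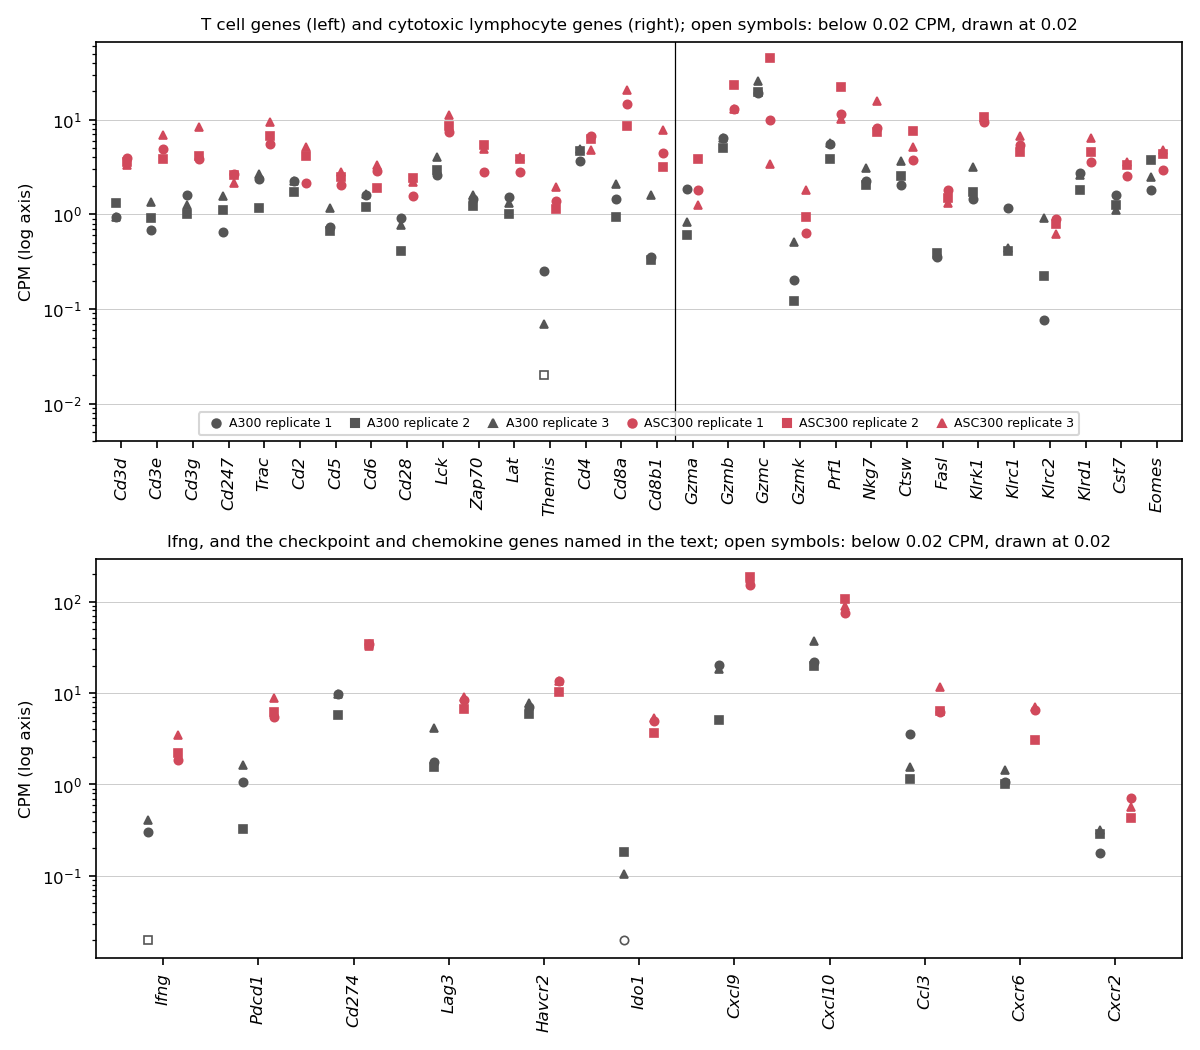
CPM on a log axis in each A300 tumor (grey) and ASC300 tumor (red) for T cell and cytotoxic lymphocyte genes (top) and for Ifng and the checkpoint and chemokine genes described in the text (bottom), with open symbols drawn at the lower limit. The 3 ASC300 tumors lie above the 3 A300 tumors for Cd8a, Klrk1, Cd274 and Cxcl9, whereas Cd4 overlaps between the groups.

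Macrophage genes were abundant, with 1 call and a median log2 fold change of 0.16. At an unadjusted p under 0.05, 6 of the 16 were higher, where 7.04% of all genes were, and 5 were higher with no overlap between the groups, where 10.6% were. Of the 16 only Fcgr1, the high-affinity receptor for IgG and itself inducible by interferon gamma, rose (1.93-fold, from 24.3, 24.9 and 25.5 CPM to 39.4, 54.5 and 50.4 CPM, adjusted p = 0.00684, and 0.0505 without ASC300 replicate 3). The summed level of the list was 2470 to 2630 CPM in A300 and 2570 to 2990 CPM in ASC300. Adgre1, which encodes F4/80, and the complement genes C1qb and C1qc had log2 fold changes of 0.39, 0.38 and 0.30 and were not called. Mpeg1, a pore-forming protein of macrophages, rose 2.08-fold with little spread, from 99.9, 95.9 and 96.9 CPM to 198, 212 and 199 CPM (log2 1.06 ± 0.06 SE, adjusted p = 0.000207).

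Among 13 genes associated with M1 macrophages the formyl peptide receptor gene Fpr2 rose 3.51-fold (adjusted p = 0.0235, and 0.0516 to 0.127 without any tumor other than A300 replicate 1), and 6 were higher at an unadjusted p under 0.05. Acod1, which makes itaconate, had 2.0, 0.326 and 1.63 CPM against 6.5, 7.12 and 6.53 CPM but was not called (log2 2.35 ± 0.52 SE, adjusted p = 0.0739), nor was Tnf (log2 1.15, adjusted p = 0.0872) or Irf5 (log2 0.57, adjusted p = 0.0825). Of 12 genes associated with M2 macrophages neither edgeR nor DESeq2 called any, 1 was lower at an unadjusted p under 0.05, and the median log2 fold change was -0.03. A300 replicate 1 was the highest A300 tumor for 11 of the 12, and 5 higher and 7 lower genes became 7 and 5 without it. Itgax, the integrin CD11c of dendritic cells and some macrophages, rose 2.04-fold (adjusted p = 0.00586, and 0.0508 in the fit to all 12 tumors). It was the only call by edgeR among 12 dendritic cell genes, of which DESeq2 called 3. Xcr1 and Clec9a, which mark cross-presenting dendritic cells, had log2 fold changes of 1.62 (adjusted p = 0.0607) and 1.44 (adjusted p = 0.165), and DESeq2 called both (adjusted p = 0.0115 and 0.0434). Of the 12 dendritic cell genes 6 were higher and 6 lower, with a median log2 fold change of 0.09. Their summed level overlapped between the groups, at 284 to 356 CPM in A300 and 277 to 335 CPM in ASC300. Of 8 tested neutrophil genes only Mmp9, a matrix-degrading protease, was called, and it fell 2.90-fold, from 23.3, 21.3 and 44.0 CPM to 10.2, 11.2 and 9.15 CPM (adjusted p = 0.0278, and 0.0973 to 0.146 without any of the ASC300 tumors). Of these 8 neutrophil genes 5 were higher and 3 lower in ASC300, with a median log2 fold change of 0.47. Ly6g, which defines neutrophils, lay between 0 and 2.04 CPM and overlapped between the groups.

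Ifng, Irf1, Il1b, Nos2, Arg1 and Tgfb1 are the genes for which RT-qPCR was also done, which was not analysed here. In the sequencing data Irf1 rose and Ifng, described above, missed the threshold. Il1b had 6.26, 9.93 and 12.7 CPM against 15.3, 18.3 and 11.9 CPM (log2 0.66 ± 0.26 SE, adjusted p = 0.323), Nos2 had 11.8, 4.85 and 2.60 CPM against 10.5, 7.77 and 9.24 CPM (log2 0.52 ± 0.46 SE, adjusted p = 0.676), and Arg1 had 71.3, 39.4 and 45.2 CPM against 62.0, 69.5 and 52.3 CPM (log2 0.24 ± 0.21 SE, adjusted p = 0.673). All 3 overlapped between the groups. Tgfb1 was lower in every ASC300 tumor, with 120, 132 and 117 CPM against 96.1, 99.2 and 98.1 CPM (log2 -0.33 ± 0.07 SE), but was not called (adjusted p = 0.0623).

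Of 15 cell death effectors 2 rose. Casp1, the inflammasome protease, rose 2.22-fold, from 4.15, 3.71 and 5.02 CPM to 9.24, 10.8 and 8.62 CPM (adjusted p = 0.0224), and Mlkl, the executor of necroptosis, rose 1.51-fold (adjusted p = 0.0102). Both calls depended on the processing, being kept in 8 and 9 of 14 alternatives. Casp1 was lost without any tumor other than A300 replicate 3 (adjusted p 0.0553 to 0.0983), and Mlkl without A300 replicate 2, where its fold was under the minimum, or ASC300 replicate 2 or 3 (0.0507 and 0.0717). Of 17 NF-kB subunits and targets none was called by edgeR, 3 were higher at an unadjusted p under 0.05 and 1 was called by DESeq2. The subunit gene Rela and the kinase gene Ikbkb had log2 fold changes of -0.10 and 0.09, and that of Rela turned to 0.04 with a correction for GC content.

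Lists for the tumor cells' growth and metabolism held no gene called by edgeR, which called 1.37% of all genes. At an unadjusted p under 0.05, 3 of 20 cell cycle genes were higher (7.04% of all genes were), and none of 19 hypoxia and glycolysis genes passed. Lower at that p were 3 of 20 genes of oxidative phosphorylation, 2 of 20 cytosolic ribosomal protein genes and 5 of 20 Ras and MAPK targets (6.21% of all genes were). DESeq2 called none in these 5 lists. In the oxidative phosphorylation and ribosomal lists 17 of 20 genes each had a log2 fold change below 0, with medians of -0.15 and -0.14. Of all genes 47.9% were above 0. Of 18 tested genes of oxidative stress and arsenic handling 2 were higher at an unadjusted p under 0.05 and none was called by either tool, with a median log2 fold change of 0.09. Nfe2l2, the regulator of the antioxidant response, and Gclc, which starts glutathione synthesis, had log2 fold changes of 0.28 (adjusted p = 0.221) and 0.31 (adjusted p = 0.295). Of 12 heat shock genes 6 were lower at an unadjusted p under 0.05 (6.21% of all genes were) without a call by either tool, and Hspb1 had 105, 38.3 and 32.0 CPM against 9.92, 30.0 and 9.83 CPM (log2 -1.81 ± 0.55 SE, adjusted p = 0.182, and log2 -1.08 without A300 replicate 1). The lipid regulators Srebf1 and Pparg had log2 fold changes of 0.09 (adjusted p = 0.609) and 0.69 (adjusted p = 0.245). Their lists of 18 sterol genes and 13 adipocyte genes held no call by either tool. At an unadjusted p under 0.05, 1 gene of each was higher and 1 adipocyte gene lower. Pparg was the only adipocyte gene with a log2 fold change above 0. The other 12 were below 0, and the list median was -0.5.

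Markers of adipose stromal cells, the type implanted, overlapped between the groups in their summed level. The 16 genes of adipose stromal cells and fibroblasts had a median log2 fold change of 0.02 and a summed level of 2020 to 2370 CPM in A300 and 2330 to 2520 CPM in ASC300. Ly6a (Sca-1), which stem and stromal cells carry and interferons also induce, was the only one called and rose 3.01-fold, from 99.1, 60.7 and 63.2 CPM to 199, 210 and 262 CPM (adjusted p = 0.00442). Pdgfra, Cd34 and Dlk1 overlapped between the groups. Of 16 collagen genes none was called by edgeR, 2 were higher at an unadjusted p under 0.05 and DESeq2 called 1, and of 12 endothelial genes none was called by edgeR, 1 was lower at an unadjusted p under 0.05 and DESeq2 called 1. A300 replicate 1 was the highest A300 tumor for 10 of the endothelial genes, of which 4 were higher and 8 lower in ASC300, and 8 and 4 without it.

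Among the genes that fell, Krt8 stood first. This keratin of simple epithelia had 92.4, 113 and 91.8 CPM in A300 and 30.7, 30.6 and 23.8 CPM in ASC300, a 3.49-fold fall (log2 -1.80 ± 0.13 SE, adjusted p = 0.000284). It was the only call among the 8 of 15 epithelial and prostate genes that passed the filter, and its usual partner Krt18 lay between 0.276 and 1.39 CPM. The adjusted p of Krt8 was 0.155 in the fit to all 12 tumors and at the lowest 1.58e-42 over the alternatives. Mrpl53, a mitochondrial ribosomal protein, fell 1.99-fold (adjusted p = 0.0159, and 0.0523 to 0.0782 without A300 replicate 2 or 3 or ASC300 replicate 2 or 3). The gene models Gm43738 and Gm21985 had no counts in any ASC300 tumor and were at least 9.49-fold and at least 6.36-fold lower, but both span other genes on the same strand, with which reads may be shared. Gm21985 was not called without ASC300 replicate 3 (adjusted p = 0.0555), nor in the fit to all 12 tumors (0.369), where Mrpl53 was not called either (0.391).

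Most of the other genes with the smallest adjusted p among those that fell are known from neurons and myelin. Kif5a, a kinesin of axonal transport, had 23.8, 21.7 and 20.3 CPM in A300 and 8.41, 10.2 and 8.87 CPM in ASC300, a 2.40-fold fall (log2 -1.26 ± 0.13 SE, adjusted p = 0.00246). It was not called in the fit to all 12 tumors (adjusted p = 0.439). Mbp, a structural protein of myelin, fell 2.12-fold, from 51.4, 40.5 and 36.2 CPM to 18.9, 19.5 and 22.1 CPM (adjusted p = 0.00653), and its call held in all 14 alternatives. Mobp, also of myelin, fell 3.03-fold (adjusted p = 0.0121), the axonal gene Atl1 2.18-fold (adjusted p = 0.0104), the synaptic vesicle gene Syp 2.17-fold (adjusted p = 0.0128), the kinase inhibitor gene Camk2n1 1.95-fold (adjusted p = 0.0133) and the calcium channel gene Cacng4 5.81-fold, from 1.65, 1.35 and 2.07 CPM to 0.202, 0.334 and 0.332 CPM (adjusted p = 0.0183). These 5 calls were each lost without 2 to 4 of the tumors, at adjusted p-values of 0.0506 to 0.0803, in every case including at least 1 ASC300 tumor. In the fit to all 12 tumors Mobp, Atl1 and Syp were not called (adjusted p = 0.585, 0.115 and 0.0782).

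The list of 20 neuron and synapse genes held 3 that fell, Snap25, Syt1 and Slc17a7, which all serve transmitter release. Snap25 had 24.5, 19.3 and 14.2 CPM in A300 and 6.74, 8.26 and 6.14 CPM in ASC300, a 2.74-fold fall (log2 -1.45 ± 0.22 SE, adjusted p = 0.0132). Tubb3, a tubulin of neurons that tumors can also express, rose 1.91-fold, from 43.9, 50.7 and 30.7 CPM to 67.3, 83.7 and 87.8 CPM (adjusted p = 0.0435). The other 19 genes were all lower, 16 of them with no overlap between the groups, as 9.67% of all genes tested were, and the median log2 fold change was -1.16. DESeq2 called 10 of them down, and none of the 19 was called in the fit to all 12 tumors or without A300 replicate 2, ASC300 replicate 1 or ASC300 replicate 3, against 5 without A300 replicate 3. Tubb3 was called in the fit without A300 replicate 2 only, among those that left out 1 tumor (adjusted p otherwise 0.0513 to 0.18). With Tubb3 included, the summed level of the list overlapped between the groups, at 126 to 202 CPM in A300 and 133 to 161 CPM in ASC300. Fgf12, a gene of the list that the study names, had 1.14, 1.73 and 1.02 CPM against 0.496, 0.746 and 0.547 CPM and was not called (log2 -1.12 ± 0.39 SE, adjusted p = 0.249).

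Of 12 glia and myelin genes 2 fell, among them Mbp, and the median log2 fold change was -1.08. The summed level was 186 to 244 CPM in A300 and 171 to 180 CPM in ASC300. Gfap and Sox10, which define astrocytes and the myelinating lineages, lay between 2.90 and 4.64 CPM and between 1.16 and 2.94 CPM in A300, against 1.38 to 1.84 CPM and 0.293 to 1.22 CPM in ASC300. Where the neural transcripts came from was not tested.

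Skeletal muscle genes stood apart in A300 replicate 1. Their summed level was 2460 CPM in that tumor, 46.7 and 8.46 CPM in the other A300 tumors, and 74.1, 180 and 7.54 CPM in ASC300. None of 14 genes was called by edgeR or DESeq2, although 3 were lower at an unadjusted p under 0.05, and the median log2 fold change went from -3.46 to 1.72 without that tumor. Ckm, Tnni2, Actn3 and Pvalb, genes of contraction and energy supply, had log2 fold changes between -3.97 and -3.50 that turned to between 0.62 and 1.35. Without A300 replicate 1, 220 genes rose and 25 fell, of which 176 and 19 were also called with it, and the medians of the neuron and glia lists were -1.03 and -0.78. The part of muscle tissue in the other results was not tested.

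**Figure D5:**
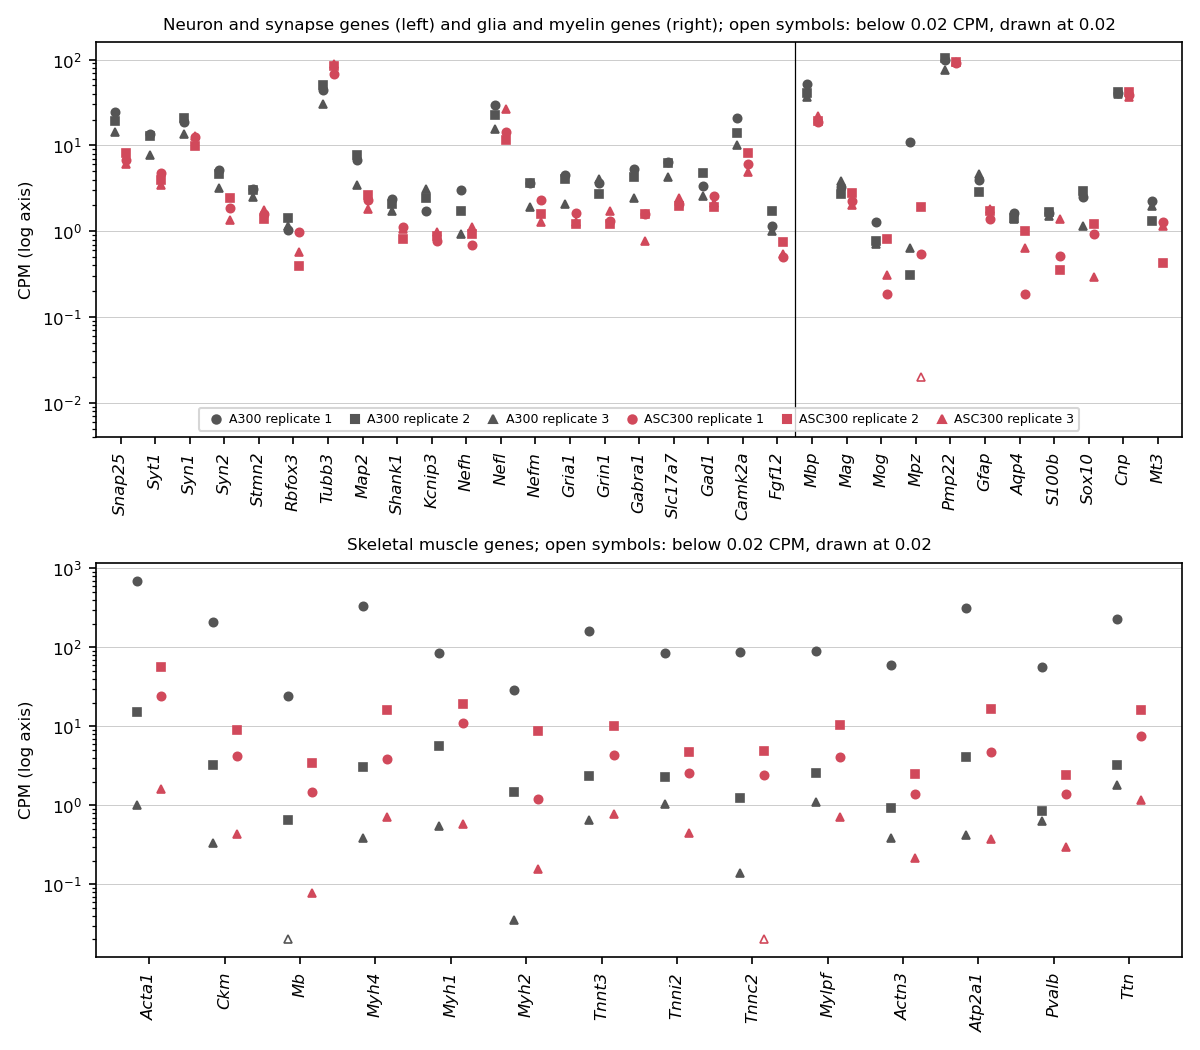
CPM on a log axis in each A300 tumor (grey) and ASC300 tumor (red) for neuron and glia genes (top) and skeletal muscle genes (bottom), with open symbols drawn at the lower limit. Most neural genes lie lower in all 3 ASC300 tumors, Tubb3 lies higher, and the muscle genes are highest in A300 replicate 1.

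The last comparison asked whether adding ASC changed the tumors differently with and without iAs, by testing the difference between the ASC300 to A300 and the ASC to Control1 effects over all 12 tumors. No gene passed an adjusted p of 0.05 in edgeR, where the lowest was 0.309, and 1473 differences were higher and 1363 lower at an unadjusted p under 0.05 (13.6% of 20818 genes). DESeq2 called 45 higher and 162 lower. Igtp, Gbp2 and Irf1, among the interferon genes described above, had log2 fold changes of the same sign under both conditions. The log2 fold change of Igtp was 3.42 with iAs and 3.06 without (difference 0.36, 95% interval -0.24 to 0.97), that of Gbp2 3.89 and 3.41 (0.47, -0.18 to 1.12), and that of Irf1 1.65 and 1.49 (0.16, -0.21 to 0.54). List medians with and without iAs were 2.90 and 2.22 for guanylate-binding proteins, 3.0 and 2.57 for immunity-related GTPases, 0.97 and 1.26 for antiviral genes, 1.28 and 1.20 for MHC class I and 1.51 and 1.11 for MHC class II. Without Control1 replicate 1 they were, in the same order, 2.89 and 2.62, 2.98 and 2.93, 0.96 and 1.28, 1.26 and 1.46, and 1.5 and 1.7. In MHC class II 2 differences were then above 0 and 10 below, against 11 and 1 with that tumor. In MHC class I these counts were 2 and 18, against 11 and 9.

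For the B, T and plasma cell lists the gap between the 2 effects depended on 1 control tumor. Control1 replicate 1 had a summed level of 316 CPM for the 12 B cell genes, against 12.5 to 40.2 CPM in the other 11 tumors, and 135 CPM for the 17 T cell genes, against 28.5 and 25.6 CPM in the other Control1 tumors. The B cell medians were 0.30 with iAs and -2.79 without, with all 12 differences above 0 and 4 at an unadjusted p under 0.05, and became 0.29 and 0.33 without that tumor. The T cell medians of 1.62 and 0.52 became 1.60 and 1.89, and those of the plasma cell list went from 0.88 and 0.01 to 0.87 and 1.38. The gap in the NK cell list remained, with medians of 0.35 and -0.03 with that tumor and 0.33 and -0.08 without it. Of its 10 differences 10 and 9 lay above 0. Cd8a had log2 fold changes of 3.29 and 1.11 (difference 2.18, 95% interval 0.12 to 4.25, adjusted p = 0.35), and 3.27 and 2.82 without that tumor.

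For neural genes the effects with and without iAs had medians of opposite sign, without a call by edgeR. In the neuron list the medians were -1.14 and 0.80, all 20 differences lay below 0 and 10 of them had an unadjusted p under 0.05, and in the glia list they were -1.06 and 0.25, with all 12 below 0 and 5 at that p. Without Control1 replicate 1 they were -1.16 and 0.34 for neurons and -1.07 and 0.08 for glia, and all 32 differences stayed below 0. Of 20 cytosolic ribosomal protein genes 13 had a difference below 0 at that p (medians -0.13 and 0.30), and of 20 oxidative phosphorylation genes 8 (-0.13 and 0.21), as against 13.6% of all genes in either direction. The ribosomal count was 5 without A300 replicate 2, 7 without ASC replicate 3 and 14 without ASC replicate 1. For oxidative phosphorylation the count was 6 without A300 replicate 2, 7 without ASC replicate 3 and 13 without ASC replicate 1. Mbp had log2 fold changes of -1.06 and 0.26 (difference -1.32, 95% interval -1.86 to -0.78), Syp -1.10 and 0.49 (-1.59, -2.37 to -0.81) and Cacng4 -2.52 and 0.10 (-2.62, -3.86 to -1.39), each with an adjusted p of 0.309. Tgfb1, with -0.32 and 0.30 (-0.62, -0.88 to -0.36), had the same adjusted p.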

How the data were processed

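RNA from 6 tumors, 3 of A300 and 3 of ASC300, was analysed, with the 6 tumors without iAs added for 1 comparison. The authors trimmed paired-end reads with Cutadapt, aligned them to the mouse genome with HISAT2 and quantified them with StringTie, gffcompare and Ballgown, and the submitters' processing notes give Cutadapt 1.1.0, HISAT2 2.0 and StringTie 1.3.4. The deposited values are raw counts per gene. The step that gave counts, the genome build and the annotation are not given in the sources used here, nor is whether counting used the strand. Low counts were more frequent at 4 than at 3 or 5 (1298, 664 and 392 genes in A300 replicate 1), and what 1 read pair adds is unknown. A floor of 12 counts per tumor was set as if it were 4, and it covers counting error only.

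Genes were filtered with filterByExpr, normalized by TMM and tested with edgeR 4.0.16 (glmQLFit and glmQLFTest, R 4.3.3) on the 6 tumors. The common dispersion was 0.0698. P-values were adjusted by Benjamini-Hochberg over all 19280 genes, and an SE is the log2 fold change divided by the root of F. An exact test of 3 against 3 cannot give a two-sided p under 0.1. The difference between ASC effects was fitted to all 12 tumors. Symbols came from GENCODE M21 and matched 55141 of 55401 genes. DESeq2 1.42.0 took all 31460 genes that had a count and set no adjusted p for 14104 of them. Other alternatives were DESeq2 size factors, other filters and thresholds, all 12 tumors in the fit, the replicate number as a block, counts divided by 4, a GC correction, and each tumor left out in turn. Scripts were checked on simulated data. The same-group libraries differed by more than sampling noise, and none was merged. As each library combines the tumors of 1 mouse, p-values measure the spread between mice.

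The members and gene lists were chosen with earlier results of these data known. Genes are named by rule: up to 12 calls in each direction by adjusted p, up to 4 members of each list by p, and the genes the study names or measured by RT-qPCR, of which Tmprss2 was below the filter. Ifngr1, Ifngr2, Gbp2b, Psme2, H2-K1, B2m, Ciita, Cd4, Foxp3, Epcam, Krt18, Pbsn and Hoxb13 and the genes of the closing section were named after their values were seen. Some members of the lists are counted but not reported by name here or drawn by gene. Not analysed here were RT-qPCR, flow cytometry and tumor growth. The authors' tests are not in the table.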

Additional observations from a re-analysis of the deposited data

How the results depend on the processing

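Of 68 named genes that were called, 36 kept the call under every alternative run for them and 32 lost it under at least 1, with none reversed. The calls upward numbered 436 by DESeq2 and 641 at unadjusted p-values, and 108 to 220 with 1 tumor left out, of which 108 to 176 were also called with all 6. The calls downward numbered 207 by DESeq2, 693 at unadjusted p-values, 25 without a filter on low counts, 13 with all 12 tumors in the fit, and 9 to 35 with 1 tumor left out. Deviations from the group means had correlations of -0.0276, -0.0227 and 0.147 between same-numbered tumors, and of -0.156 to 0.155 between differently numbered ones. With 3 tumors per group these values cannot decide whether the replicate numbers pair the tumors. With the replicate number as a block 182 genes were called up and 18 down. For the difference between ASC effects DESeq2 called 45 genes higher and 162 lower, and leaving out 1 tumor gave 0 to 1 in each direction, where 1 was called higher without A300 replicate 3 or ASC replicate 3 and 1 lower without ASC300 replicate 3. Log2 fold changes that reversed were Junb (0.05), Etv4 (0.03) and Rela (0.04) with the GC correction, Pvalb (-4.46 to 0.88 with 1 tumor left out), Actn3 (-4.64 to 1.07), Tnni2 (-4.24 to 0.62) and Ckm (-4.92 to 1.35) without A300 replicate 1, and Mcpt4 (-0.15 to 0.89) without ASC300 replicate 2, none of which was called. The cause was not tested, except that fewer tumors or more genes enter some of these fits. Genes under about 1 CPM, such as Ifng in A300, rest on few reads.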

Other observations

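Of the 223 genes called up, 125 belonged to none of the lists, and the following, apart from Serpina3f and Apol6, were named after their values were seen. Batf2, a transcription factor induced by interferon gamma in macrophages, had 1.62, 0.877 and 2.04 CPM in A300 and 11.8, 12.4 and 15.6 CPM in ASC300, an 8.76-fold rise (adjusted p = 0.00154, edgeR). Fcgr4, an activating Fc receptor of mouse macrophages, rose 5.81-fold, from 12.2, 6.79 and 9.13 CPM to 46.3, 51.7 and 65.0 CPM (adjusted p = 0.000711). Serpina3f and Serpina3g, neighbouring members of a protease inhibitor family whose similar sequences may share reads, rose 12-fold (adjusted p = 0.000207) and 8.89-fold (adjusted p = 0.000836). Apol6, which overlaps Mb on the opposite strand, rose 10.8-fold, from 2.15, 1.51 and 1.55 CPM to 15.4, 18.6 and 21.8 CPM (adjusted p = 0.000244). Tnfsf10, which encodes the death ligand TRAIL, rose 4.00-fold, from 2.28, 1.69 and 2.70 CPM to 7.94, 9.58 and 9.26 CPM (adjusted p = 0.00327).

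Il2rb, shared by the receptors for IL-2 and IL-15, had 6.61, 6.69 and 11.8 CPM against 30.1, 36.9 and 39.5 CPM, a 4.24-fold rise (adjusted p = 0.00318), and Il15ra rose 2.82-fold (adjusted p = 0.00515). Tox, a factor of exhausted T cells, rose 6.40-fold at low levels, from 0.658, 0.285 and 0.544 CPM to 1.86, 2.81 and 4.87 CPM (adjusted p = 0.0296). Fst, which encodes the activin antagonist follistatin, rose 3.15-fold, from 13.5, 13.5 and 9.04 CPM to 39.8, 32.1 and 41.8 CPM (adjusted p = 0.00262).

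Among the 35 genes called down outside the lists, Clu, a secreted chaperone, fell 2.45-fold, from 172, 93.3 and 166 CPM to 63.3, 61.6 and 51.2 CPM (adjusted p = 0.0209). Fcrls, known as a marker of microglia, had 65.4, 91.2 and 93.8 CPM in A300 and 33.8, 48.2 and 24.4 CPM in ASC300, a 2.36-fold fall (adjusted p = 0.0427). The calcium sensor genes Vsnl1 and Hpca fell 3.32-fold and 3.40-fold (adjusted p = 0.0275 and 0.0307).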
